A study of Mus musculus with 6 samples.

Results

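The 10 genes described here encode the main proteins of the basement membrane: the collagen IV chains *Col4a1* and *Col4a2*, the laminin chains *Lama2*, *Lama4*, *Lamb1*, *Lamb2*, and *Lamc1*, the nidogens *Nid1* and *Nid2*, and perlecan (*Hspg2*). They were taken by name from the 56923 genes with counts, and all 10 passed the filter on low counts that left 17212 genes for testing. mRNA-Seq was performed on left ventricles (LVs) of 12-week-old male mice, 3 heterozygous for the knock-in allele *Lztr1* R409C (*Lztr1* R409C/+) and 3 wild type (WT), with 1 library per mouse. LZTR1 is a substrate adaptor of a CUL3 ubiquitin ligase that targets RAS-family proteins, and the R409C allele, introduced by CRISPR/Cas9 and backcrossed to C57BL/6J, models an autosomal dominant Noonan syndrome mutation. The sample labels give only Mutant and Wild-type, and heart as the tissue, and the allele, the male sex, and the LV are taken from the study's methods. The allele is carried in the germ line and so by every cell type of the ventricle. The comparison asked how the mutation affects gene expression in the hypertrophic heart.

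A basement membrane is a thin sheet of extracellular matrix that surrounds each cardiomyocyte and underlies the endothelium of every vessel. Laminin trimers, each made of an alpha, a beta, and a gamma chain, polymerize on the cell surface and bind integrins and dystroglycan. Collagen IV forms a second network outside them, and nidogens and the heparan sulfate proteoglycan perlecan link both. In the heart most collagen IV is a trimer of alpha 1 and alpha 2 chains, and the alpha 2 laminin chain is typical of muscle whereas the alpha 4 chain is typical of vessels.

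Total counts ranged from 66130887 to 72641124 per mouse, and levels are given as CPM, the counts of a gene scaled to a common library size after TMM normalization, which corrects for differences in library composition. Mitochondrially encoded genes took between 13.8% (WT replicate 3) and 45.4% (*Lztr1* R409C/+ replicate 1) of the counts. Of 8 cardiomyocyte markers all were detected, at summed levels of 24430 to 36546 CPM, and of 5 atrial markers *Sln*, *Myl7*, *Bmp10*, and *Myl4* stayed between 0 and 0.570 CPM in the 6 mice. The fifth gene of that list, *Myl1*, is not specific to the atria, so its level does not measure atrial tissue. It was at 9.72 to 13.9 CPM in WT and 13.8 to 18.4 CPM in *Lztr1* R409C/+ mice (log2 fold change 0.43, edgeR unadjusted p = 0.0446, adjusted p = 0.568). *Lztr1* itself gave 24.2, 24.2, and 22.2 CPM in the WT hearts. The mutant hearts gave 23.9, 27.9, and 25.3 CPM, with values listed here and throughout by replicate number. A point mutation need not change the mRNA level, so these values do not check the labels.

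Genotypes were compared by quasi-likelihood testing in edgeR, with p-values adjusted over all tested genes by the method of Benjamini and Hochberg. None of the 10 genes passed the 0.05 threshold, where 7 of 17212 tested genes did (0.0407%), and none passed it in DESeq2, where 0.871% did. At an unadjusted p under 0.05, 0 of the 10 passed in edgeR, where 8.63% of tested genes did, and 1, *Lamb2*, passed in DESeq2, where 9.20% did. The genotypes overlapped for every one of the 10, where 15.5% of tested genes showed no overlap (8.30% higher and 7.23% lower in mutant mice). The median log2 fold change of *Lztr1* R409C/+ over WT was -0.02 for the 10 genes and 0.01 for all tested genes, with 5 of the 10 above 0, as were 51.4% of tested genes. The spread within the genotypes was unequal. The coefficient of variation lay between 2.43% and 16.6% in WT mice and between 19.8% and 48.5% in *Lztr1* R409C/+ mice, whereas counting error at the lowest count of each gene was at most 3.57%. In all 10 genes the lowest of the 6 mice was *Lztr1* R409C/+ replicate 1.

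**Figure D1:**
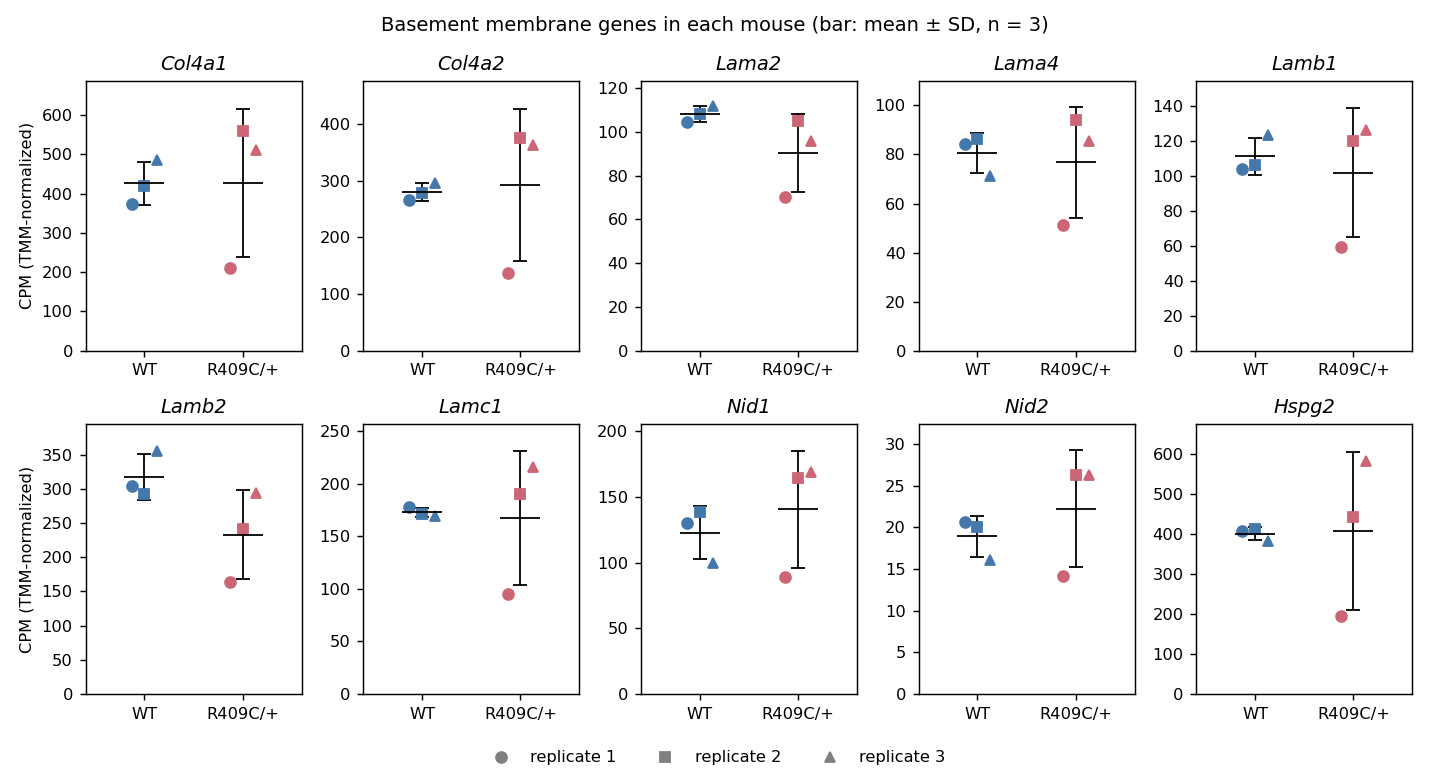
CPM of each gene (vertical axes, each from 0) in the 3 WT (blue) and 3 *Lztr1* R409C/+ mice (red), with the replicate number as the marker shape and the mean ± SD (n = 3) in black. *Lztr1* R409C/+ replicate 1 (red circle) is the lowest mouse in all 10 panels.

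The collagen IV genes lie head to head. *Col4a1* (ENSMUSG00000031502.12) occupies 11248423 to 11362826 on the minus strand of chromosome 8 of GRCm39, and *Col4a2* (ENSMUSG00000031503.14) occupies 11362471 to 11499287 on the plus strand. In the RefSeq models on GRCm38.p6, the first 22 bases of the transcripts are shared on opposite strands. That stretch is shown, plus strand, because both genes start in it, with a GGGCGG box in capitals:
Shared start, chr8:11312805-11312826: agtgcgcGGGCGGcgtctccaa

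*Col4a1*, which encodes the alpha 1 chain, gave 375, 419.5, and 485 CPM in the WT hearts. The mutant hearts gave 211, 559.7, and 510.1 CPM. Replicate 1 of the mutant group was below every WT mouse and the other mutant mice were above every WT mouse. The means were 426 ± 55.4 and 427 ± 189 CPM (SD, n = 3 in each group), with a log2 fold change of 0.00 (95% interval, -0.65 to 0.65, edgeR adjusted p = 0.999). This near-zero difference took the opposite sign with DESeq2's size factors, without a filter on low counts, and when WT replicate 1 or 2 or mutant replicate 2 or 3 was left out. In the GENCODE annotation, exons of the pair share 311 bases on opposite strands around their starts.

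*Col4a2*, which encodes the alpha 2 chain, was at 266, 279, and 297 CPM in WT mice and at 138, 376, and 364 CPM in *Lztr1* R409C/+ mice. The order of the mice relative to WT was that of *Col4a1*, with 1 mutant mouse below and the others above. The log2 fold change was 0.06 (95% interval, -0.61 to 0.73, edgeR adjusted p = 0.972).

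The ratio of *Col4a2* to *Col4a1*, computed per kb of transcript within each mouse and so free of the scaling between libraries, stayed between 0.600 and 0.700 in all 6 mice, although both genes varied over 2-fold between mice. It was 0.649 ± 0.0476 in WT and 0.666 ± 0.0305 in *Lztr1* R409C/+ mice (SD, n = 3 in each group, two-sided exact permutation test, p = 0.6, adjusted p = 0.9 over 6 ratios, with 0.1 the smallest p that 3 mice against 3 allow). Among 17211 other tested genes, *Col4a2* was the one whose profile over the mice lay nearest to that of *Col4a1*, with a root mean square difference of 0.07 between log2 CPM profiles once each was centered on its own mean. The next were *Papln* (0.10), which encodes the matrix protein papilin, *5430414B19Rik* (0.10), *Lamb1* (0.13), and *Col5a1* (0.13), a fibrillar collagen gene. *5430414B19Rik* was at no more than 0.591 CPM in any mouse.

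In *Lztr1* R409C/+ replicate 1 the laminin alpha chains were at 65.0% (*Lama2*) and 63.6% (*Lama4*) of the WT mean, against 49.4% for *Col4a1*. *Lama2* (ENSMUSG00000019899.18, chromosome 10, 26856032 to 27495754, minus strand), whose chain anchors muscle fibers and whose loss causes a congenital muscular dystrophy, was at 104, 108, and 112 CPM in WT and at 70.4, 105, and 96.0 CPM in *Lztr1* R409C/+ mice. A single mutant mouse thus reached the WT range. Its log2 fold change was -0.26 (95% interval, -0.64 to 0.12, edgeR adjusted p = 0.715), and it ranged from -0.40 to -0.045 over the 15 alternatives tried. *Lama4* (ENSMUSG00000019846.12, chromosome 10, 38841141 to 38998403, plus strand), the alpha chain of vessel laminin, was at 84.3, 86.3, and 71.1 CPM in WT and at 51.3, 93.9, and 85.4 CPM in *Lztr1* R409C/+ mice. WT and mutant mice were interleaved, and the log2 fold change was -0.07 (95% interval, -0.53 to 0.39). The ratio of *Lama2* to *Lama4* per kb was 0.774, 0.784, and 0.984 in the WT hearts and 0.858, 0.697, and 0.703 in the mutant hearts, which overlapped (two-sided exact permutation test, p = 0.3, adjusted p = 0.6 over 6 ratios).

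Of the beta chains, *Lamb2* (ENSMUSG00000052911.10, chromosome 9, 108356935 to 108367729, plus strand), a beta chain of mature muscle and vessel laminin, was at 304, 292, and 356 CPM in WT and at 164, 241, and 294 CPM in *Lztr1* R409C/+ mice. The groups overlapped only through *Lztr1* R409C/+ replicate 3, which lay just above WT replicate 2. Its log2 fold change of -0.44 was the largest in size of the 10 genes, with a 95% interval from -0.90 to 0.01 and edgeR p-values of 0.0533 before and 0.587 after adjustment. Those from DESeq2 were 0.0333 and 0.473. It was below 0 in all 15 alternatives, from -0.65 to -0.25.

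*Lamb1* (ENSMUSG00000002900.18, chromosome 12, 31315030 to 31379658, plus strand), the more widely expressed beta chain, was at 104, 106, and 123 CPM in WT and at 59.2, 120.0, and 126 CPM in *Lztr1* R409C/+ mice. Apart from *Lztr1* R409C/+ replicate 1, the mutant mice lay within or just above the WT range. Its log2 fold change was -0.13 (95% interval, -0.66 to 0.40). The ratio of *Lamb2* to *Lamb1* per kb was 3.01, 2.82, and 2.97 in the WT hearts and 2.85, 2.07, and 2.40 in the mutant hearts. Mutant replicates 2 and 3 were below every WT mouse and replicate 1 was within the WT range, and the difference of -0.28 on the log2 scale did not pass (two-sided exact permutation test, p = 0.2, adjusted p = 0.6 over 6 ratios). In the GENCODE annotation, exons of *Lamb1* share 303 bases with *Dld* on the opposite strand, and those of *Lama4* share 806 bases with *Fam229b*. Whether counting used strand is not given in the sources used here.

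The 250 bases before the RefSeq starts of the beta chain genes are shown because these paralogs were compared as a ratio within each mouse. Both strands were searched for the GC box GGGCGG, for the box named after its letters CCAAT, and for the TATA box TATAAA. Matches are in capitals, with CCGCCC as the GC box of the minus strand, and the plus strand of GRCm38.p6 is shown:
*Lamb1*, chr12:31265043-31265292: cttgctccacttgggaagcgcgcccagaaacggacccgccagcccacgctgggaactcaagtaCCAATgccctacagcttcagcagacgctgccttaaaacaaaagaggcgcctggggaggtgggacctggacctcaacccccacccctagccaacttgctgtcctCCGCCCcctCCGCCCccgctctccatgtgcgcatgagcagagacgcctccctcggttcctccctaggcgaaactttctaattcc
*Lamb2*, chr9:108479612-108479861: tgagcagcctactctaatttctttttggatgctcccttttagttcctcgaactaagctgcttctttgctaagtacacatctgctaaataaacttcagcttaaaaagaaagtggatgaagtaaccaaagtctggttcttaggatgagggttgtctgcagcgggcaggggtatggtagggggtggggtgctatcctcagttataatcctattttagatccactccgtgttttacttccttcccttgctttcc

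Of the 10 genes, 7 matched the RefSeq promoter table, and *Lama4*, *Lamc1*, and *Nid2* did not. In windows of 300 bases (250 before and 50 after the start), GGGCGG was found in 6 of the 7, against 35.7% of all 32851 windows, and *Lamb2* was the gene without it. CCAAT was found in 4 of the 7 (37.4% of all windows) and TATAAA in 0 (13.6% of all windows). The GC content of the window was 44.0% for *Lamb2*, 50.3% for *Lama2*, and between 63.7% and 74.0% for the other 5, with a median of 52.7% over all windows.

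*Lamc1* (ENSMUSG00000026478.15, chromosome 1, 153094597 to 153208774, minus strand) encodes the gamma chain shared by the laminins above. It had the smallest coefficient of variation of the 10 genes in WT (2.43%), at 178, 172, and 169.6 CPM, and was at 95.6, 190.2, and 217 CPM in *Lztr1* R409C/+ mice. The mutant mice lay on both sides of the narrow WT range, and the log2 fold change was -0.05 (95% interval, -0.58 to 0.49). Per kb, the summed beta chains were at 2.65 to 3.95 times the level of *Lamc1* in the 6 mice, and the sum of *Lama2* and *Lama4* was at 0.880 to 1.31 times. This sum leaves out the alpha chain *Lama5*, which was at 135 ± 11.5 CPM in WT mice (SD, n = 3). The ratio of the beta chains to *Lamc1* was 3.47 ± 0.417 in WT and 2.87 ± 0.339 in *Lztr1* R409C/+ mice (SD, n = 3 in each group, two-sided exact permutation test, p = 0.3, adjusted p = 0.6 over 6 ratios). That of *Lama2* plus *Lama4* was 1.12 ± 0.0462 and 1.10 ± 0.213 (p = 0.8 by the same exact test).

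**Figure D2:**
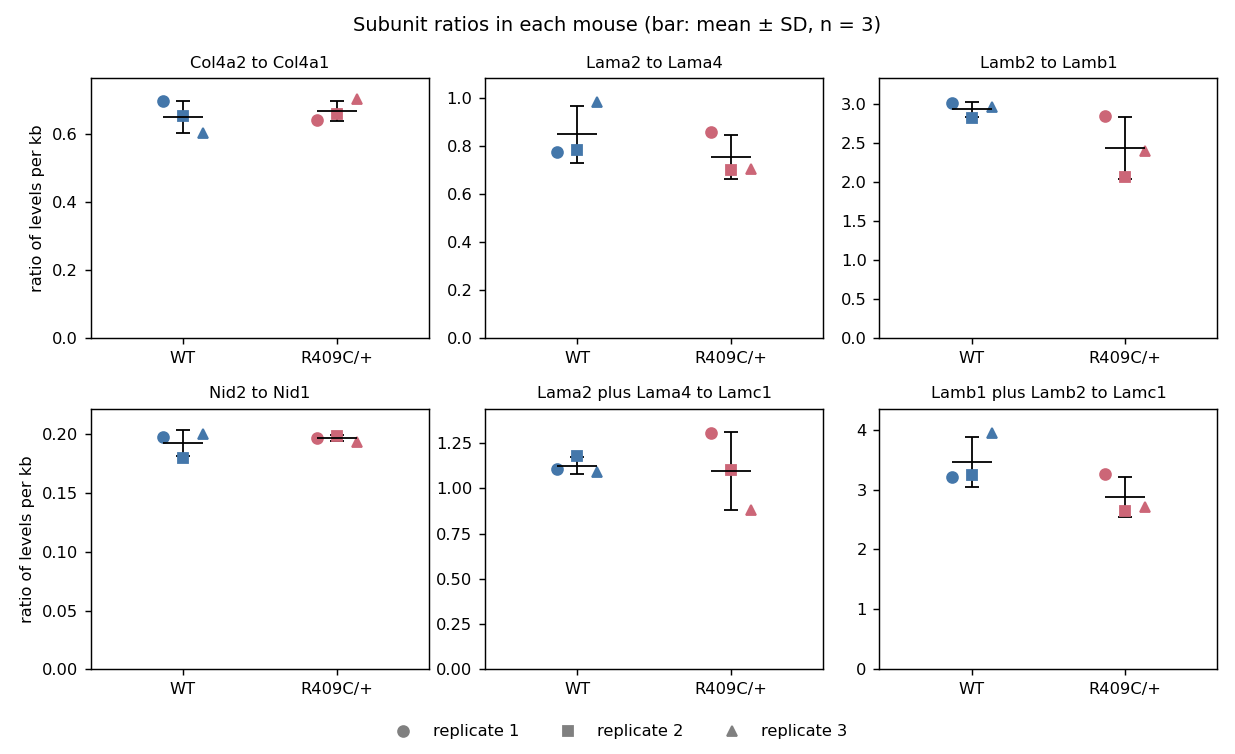
Ratios of levels per kb of transcript (vertical axes, each from 0) for 6 pairs or sums of chains, in the 3 WT (blue) and 3 *Lztr1* R409C/+ mice (red), with the mean ± SD (n = 3). The *Col4a2* to *Col4a1* ratio stays between 0.600 and 0.700 in every mouse, and the *Lamb2* to *Lamb1* ratio is lowest in *Lztr1* R409C/+ replicates 2 (2.07) and 3 (2.40).

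The nidogens had the highest fold changes of the 10. *Nid1* (ENSMUSG00000005397.9, chromosome 13, 13612071 to 13686860, plus strand), which encodes nidogen 1, was at 129.8, 139, and 99.8 CPM in WT and at 89.4, 164, and 169 CPM in *Lztr1* R409C/+ mice. *Nid2* (ENSMUSG00000021806.5, chromosome 14, 19801298 to 19861855, plus strand), its paralog, was at 20.6, 20.1, and 16.1 CPM in WT and at 14.2, 26.2, and 26.3 CPM in *Lztr1* R409C/+ mice. For both genes the mutant replicates 2 and 3 were above every WT mouse and the mutant replicate 1 was below. The log2 fold changes were 0.20 (95% interval, -0.31 to 0.70) for *Nid1* and 0.23 (95% interval, -0.26 to 0.73) for *Nid2*, and their size depended on single mice. The lowest values over the 15 alternatives were 0.045 for *Nid1* (without mutant replicate 3) and 0.092 for *Nid2* (without mutant replicate 2), and the highest were 0.44 and 0.47. The ratio of *Nid2* to *Nid1* per kb lay between 0.180 and 0.201 in all 6 mice (two-sided exact permutation test, p = 0.9, adjusted p = 0.9 over 6 ratios). *Nid1* was the tested gene whose profile was nearest to that of *Nid2*, and *Nid2* was the third nearest to *Nid1*. Outside the collagen IV and nidogen pairs, the nearest other gene of the 10 ranked 4th for *Lamb1*, 6th for *Hspg2*, and 9th for *Lamc1*. For *Lama4*, *Lamb2*, and *Lama2* it ranked only 251st, 261st, and 1344th. Exons of *Nid2* share 767 bases with *Rtraf* on the opposite strand.

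*Hspg2* (ENSMUSG00000028763.19, chromosome 4, 137196079 to 137298231, plus strand) encodes perlecan and has the longest transcript of the 10, at 14502 bases. It was at 407, 413, and 383 CPM in WT and at 194, 444, and 584 CPM in *Lztr1* R409C/+ mice. It varied most of the 10 within the mutant group, with a coefficient of variation of 48.5% against 3.98% in WT. The log2 fold change was 0.02 (95% interval, -0.66 to 0.70, edgeR adjusted p = 0.989).

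In WT mice the order of levels per kb was *Col4a1* (64.5 ± 8.38 CPM per kb, SD, n = 3), *Lamb2* (56.3 ± 6.01), *Col4a2* (41.6 ± 2.32), *Hspg2* (27.7 ± 1.10), *Lamc1* (21.8 ± 0.529), *Nid1* (20.1 ± 3.35), *Lamb1* (19.2 ± 1.83), *Lama4* (13.3 ± 1.36), *Lama2* (11.2 ± 0.390), and *Nid2* (3.86 ± 0.504). The ranges of neighbors overlapped for *Col4a1* and *Lamb2*, for *Lamc1* and *Nid1*, and for *Nid1* and *Lamb1*, so their order was not resolved. With the union of annotated exons as the length, *Lamc1* and *Nid1* changed places, as did *Lama4* and *Lama2*. As a share of the summed level per kb of the 10 genes, a measure added after the data were seen, *Nid1* was at 7.93%, 8.21%, and 5.60% in WT and at 9.75%, 8.49%, and 8.40% in *Lztr1* R409C/+ mice. *Nid2* was at 1.57%, 1.48%, and 1.12% in WT and at 1.92%, 1.69%, and 1.63% in *Lztr1* R409C/+ mice. Both nidogens took a larger share in every mutant mouse than in any WT mouse (exact two-sided permutation test, p = 0.1 for each, the smallest possible, before any adjustment for the 10 shares), and the shares of the other 8 genes overlapped. Without WT replicate 3 the difference went from 1.63 to 0.809 percentage points for *Nid1* and from 0.359 to 0.226 for *Nid2*. *Lamb2* took 20.1% ± 1.45 in WT and 16.2% ± 2.96 in *Lztr1* R409C/+ mice (SD, n = 3 in each group, p = 0.2 by the same exact test). Its difference of -3.89 percentage points was -5.46 without mutant replicate 1 and -2.52 without mutant replicate 2.

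The deviation of *Lztr1* R409C/+ replicate 1 was common to the 10 genes. Relative to each gene's mean over the 6 mice, its log2 CPM was between -0.99 (*Col4a2* and *Hspg2*) and -0.48 (*Lama2*), with a median of -0.75. The medians of the other mice were 0.06, 0.08, and 0.08 in the WT group. For mutant replicates 2 and 3 they were 0.25 and 0.36. Replicate 1 was the lowest mouse for 20.1% of all tested genes, and 8.08% of tested genes were at or below -0.48 in it. All 10 transcripts are long, from 4901 bases upward, and among the 3966 tested genes of at least this length replicate 1 was lowest for 29.8%, with a median deviation of -0.08. After removal of a loess trend on transcript length, the median deviation of the 10 genes in replicate 1 was -0.67, against -0.75 before. This removes only the average trend over genes, and the part of length in the low values was not tested.

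This mouse had the highest mitochondrial share. It also had the lowest summed endothelial, fibroblast, smooth muscle and pericyte, and cardiomyocyte markers, although not every gene of these lists was lowest in it. The summed CPM of 8 endothelial markers was 545 in *Lztr1* R409C/+ replicate 1 and 625 to 853 in the other mice, and that of 8 fibroblast markers was 1191 and 1311.5 to 1709. The sum of 9 smooth muscle and pericyte markers was 944 in it and 974 to 1257 in the others, and that of 8 cardiomyocyte markers 24430 and 28797 to 36546. It was the lowest mouse for 3, 3, 5, and 3 genes of these lists and the highest for 1 (*Emcn*), 3 (*Dcn*, *Dpt*, and *Lum*), 0, and 1 (*Pln*). Without the most abundant gene of each list, a check added after the data were seen, its endothelial sum was 438 CPM (461 to 652 in the other mice) and its smooth muscle and pericyte sum 351 CPM (450.1 to 635), again the lowest. The fibroblast sum without *Gsn* was 738 CPM (662 to 852 in the others) and the cardiomyocyte sum without *Myh6* 18101 CPM (16921 to 19270), both within the range of the other mice. *Lum*, *Dpt*, *Tcf21*, and *Emcn* were higher in every mutant mouse than in every WT mouse, with edgeR unadjusted p-values of 0.0037, 0.0091, 0.0429, and 0.0311 and adjusted p-values of 0.305 or more. These were 3 of 8 fibroblast markers and 1 of 8 endothelial markers, where 8.30% of all tested genes were higher without overlap. The other markers of these 2 lists overlapped. *Myh11* and *Tagln*, markers of smooth muscle, were lower in every mutant mouse than in every WT mouse (log2 fold changes -0.71 and -0.65, edgeR unadjusted p = 0.0104 and 0.0152, adjusted p = 0.438 and 0.470). These were 2 of 9 smooth muscle and pericyte markers, where 7.23% of all tested genes were lower without overlap. Without *Lztr1* R409C/+ replicate 1, *Lum*, *Myh11*, and *Tagln* kept an edgeR unadjusted p under 0.05 and *Dpt*, *Tcf21*, and *Emcn* did not. The log2 fold changes of *Dpt*, *Tcf21*, and *Emcn* were 0.65, 0.54, and 0.40 with all mice and 0.44, 0.53, and 0.34 without that mouse. By list, 6 of 8 endothelial, 5 of 8 fibroblast, and 3 of 9 smooth muscle and pericyte markers had a log2 fold change above 0. In contrast, 8 macrophage markers summed to 216 CPM in it, within the range of 213 to 232 in the mutant group and above that of 122 to 126 in WT mice. Of these 8, *C1qb* and *C1qc* passed the threshold (edgeR adjusted p = 0.0241 for each). In bulk tissue, fewer cells of a type and less RNA per cell cannot be told apart. The part of cell composition, mitochondrial share, or RNA quality in the low values was not tested.

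**Figure D3:**
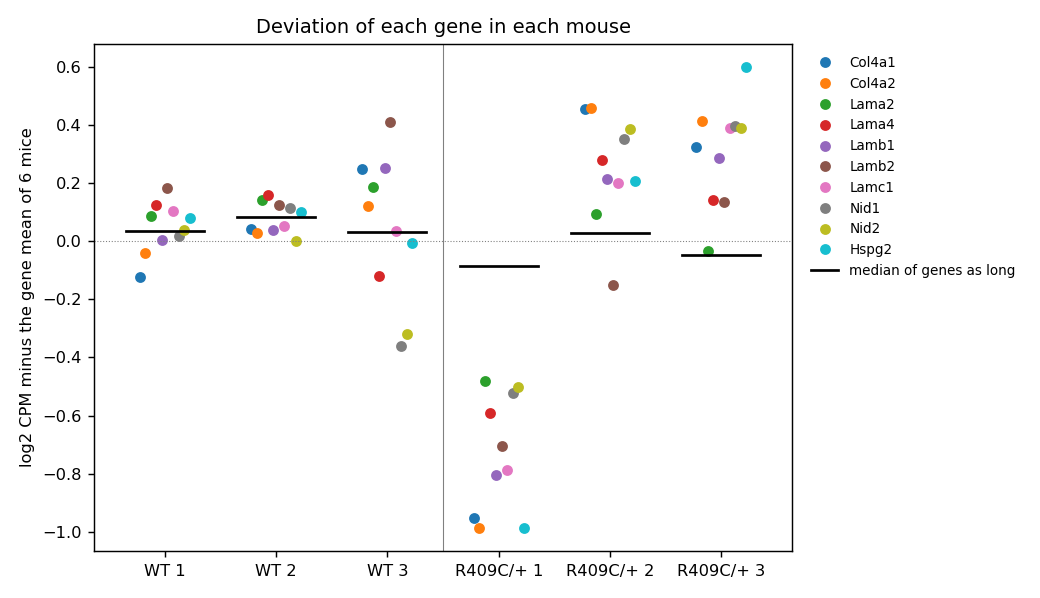
Log2 CPM of each of the 10 genes minus the gene's mean over the 6 mice (vertical axis), by mouse (horizontal axis), with the median of the 3966 tested genes of at least 4901 bases as a black line. All 10 points of *Lztr1* R409C/+ replicate 1 lie between -0.99 and -0.48, while the median of long genes in it is -0.08.

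Without *Lztr1* R409C/+ replicate 1, 8 of the 10 genes had a log2 fold change above 0, with a median of 0.27 (0.00 over all tested genes), and *Lama2* (-0.12) and *Lamb2* (-0.25) remained below 0. In this edgeR fit, *Col4a2* (0.39, unadjusted p = 0.0219), *Nid1* (0.43, unadjusted p = 0.0310), and *Nid2* (0.47, unadjusted p = 0.0212) then had an unadjusted p under 0.05, 3 of 10 where 4.82% of tested genes were higher at that level. No gene of the 10 passed after Benjamini-Hochberg adjustment in this fit, with adjusted p-values of 0.588 or more from edgeR, and 2 of 17879 tested genes did (0.0112%). *Col4a1*, *Col4a2*, *Lamc1*, *Nid1*, *Nid2*, and *Hspg2* were higher in both remaining mutant mice than in every WT mouse, 6 of 10 where 14.0% of tested genes were. With the length correction in addition, an alternative chosen after the data were seen, *Hspg2* (0.47, edgeR unadjusted p = 0.0203) joined these 3 genes, 4 of 10 where 4.04% of tested genes were higher at that level. In that fit 0 of the 10 passed after adjustment, where 1 of 17782 tested genes did (0.00562%). *Lztr1* R409C/+ replicate 1 was the lowest mouse for all 10 genes, against 20.1% of tested genes. Leaving it out thus raises their fold changes by construction, and the counts without it are no test of genotype. Without mutant replicate 2 or 3 instead, 8 of the 10 log2 fold changes were below 0, with medians of -0.21 for each omission. The sign of the median thus changed with the mutant mouse that was left out.

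**Figure D4:**
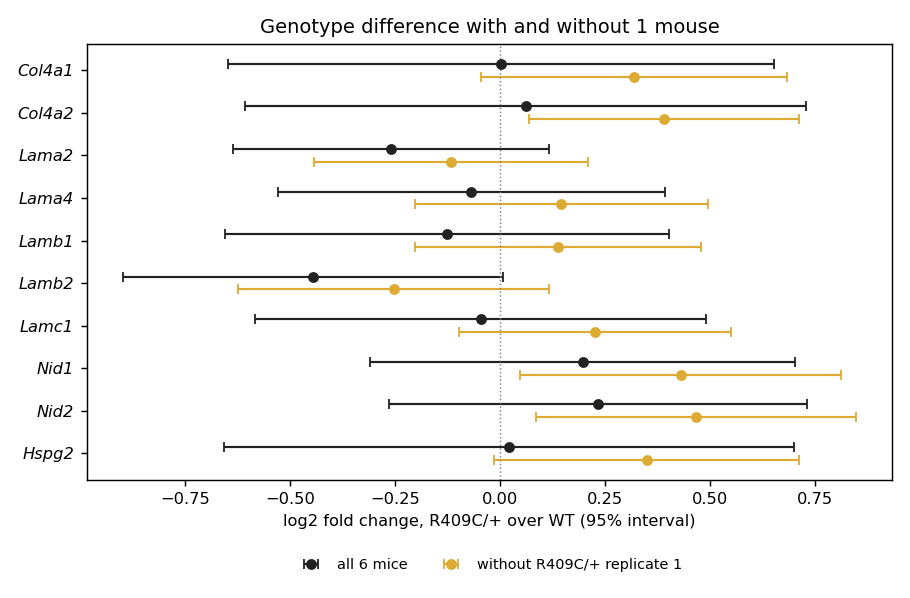
Log2 fold change of *Lztr1* R409C/+ over WT with its 95% interval from edgeR's quasi-likelihood fit (horizontal axis) for each gene, with all 6 mice (black) and without *Lztr1* R409C/+ replicate 1 (yellow). With all mice every interval includes 0, and without that mouse those of *Col4a2*, *Nid1*, and *Nid2* lie above 0.

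Other basement membrane genes were grouped by role. Of the 59 tested genes in the 6 lists that follow, 0 passed the adjusted threshold in edgeR (0.0407% of all tested genes), and at an unadjusted p under 0.05, 2 were higher (3.39%, against 5.77% of all tested genes) and 3 lower (5.08%, against 2.86%). The other collagen IV chains, which are minor in the heart, were all tested, 2 with a log2 fold change above 0 and 2 below, at a median of 0.02. *Col4a3* was at 5.43 to 5.72 CPM in WT and 5.96 to 7.40 CPM in *Lztr1* R409C/+ mice and *Col4a4* at 8.84 to 11.5 and 9.94 to 13.6 CPM. *Col4a5*, the most abundant of the 4 in CPM and named after its values were seen, was at 36.9, 38.2, and 48.0 CPM in WT and at 26.7, 44.6, and 38.9 CPM in *Lztr1* R409C/+ mice. *Lztr1* R409C/+ replicate 1 was the lowest mouse for *Col4a5* and *Col4a6*, 2 of the 4, and not for *Col4a3* and *Col4a4*.

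Of the other laminin chains 5 of 6 were tested, with a median log2 fold change of -0.17, and *Lama1* had 0 counts in every mouse. *Lama3*, an alpha chain of epithelial laminin, was at 2.15 to 3.23 CPM in WT and 1.44 to 2.26 CPM in *Lztr1* R409C/+ mice.

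Among 14 other basement membrane proteins, 10 had a log2 fold change above 0, with a median of 0.15. *Sparc*, which encodes a collagen-binding matricellular protein, was at 256, 266, and 243 CPM in WT and at 295, 427, and 368 CPM in *Lztr1* R409C/+ mice. It was higher in every mutant mouse, replicate 1 included (log2 fold change 0.51, unadjusted p = 0.0119, edgeR adjusted p = 0.454). *Smoc1*, a SPARC-related gene, was at 2.78 to 3.96 CPM in WT and at 5.54, 3.80, and 12.1 CPM in *Lztr1* R409C/+ mice (log2 fold change 1.03, edgeR adjusted p = 0.470). *Col15a1* and *Col18a1*, the basement membrane collagens that release the endostatin-type fragments and were named after their values were seen, were below every WT mouse in *Lztr1* R409C/+ replicate 1 and above every WT mouse in replicates 2 and 3, as was *Col4a1*. *Col15a1* was at 90.3, 94.8, and 95.3 CPM in WT and at 65.1, 160.1, and 159.6 CPM in *Lztr1* R409C/+ mice, and *Col18a1* at 6.93, 6.65, and 7.60 and at 5.02, 11.7, and 14.4 CPM. Without *Lztr1* R409C/+ replicate 1, 5 of the 14 were higher at an edgeR unadjusted p under 0.05 (4.82% of tested genes) against 2 with it (5.77% of tested genes). That mouse was the lowest for 8 of the 14, so the count without it is no test of genotype.

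Of 10 receptors of basement membrane proteins, 4 had a log2 fold change above 0 and 6 below, and 8 were lowest in *Lztr1* R409C/+ replicate 1. *Itga7*, the laminin-binding integrin alpha chain of muscle, was at 122, 115, and 116 CPM in WT and at 63.1, 97.0, and 106 CPM in *Lztr1* R409C/+ mice, without overlap (log2 fold change -0.40, edgeR adjusted p = 0.598). *Itgb1*, its beta partner, was at 381 to 438 CPM in WT and at 316, 377, and 344 CPM in *Lztr1* R409C/+ mice, also without overlap (log2 fold change -0.22, edgeR unadjusted p = 0.193, adjusted p = 0.745). Of the 10 receptors only these 2 were without overlap, where 7.23% of all tested genes were lower without overlap. Without *Lztr1* R409C/+ replicate 1 the log2 fold changes were -0.22 for *Itga7* and -0.16 for *Itgb1*. Of 15 tested genes for the folding and crosslinking of collagen IV, 8 were above 0 and 7 below, with a median of 0.01. *P4ha1*, a prolyl hydroxylase subunit, was at 41.1 to 62.3 CPM in WT and 32.9 to 42.1 CPM in *Lztr1* R409C/+ mice (log2 fold change -0.41, edgeR unadjusted p = 0.0464). *Mia3*, which loads large collagens for secretion, was at 65.5 to 68.0 CPM in WT and at 46.6, 58.6, and 52.6 CPM in *Lztr1* R409C/+ mice (log2 fold change -0.35, edgeR unadjusted p = 0.0374, adjusted p = 0.554). Without *Lztr1* R409C/+ replicate 1 neither had an unadjusted p under 0.05, with edgeR unadjusted p = 0.128 for *P4ha1* and 0.0904 for *Mia3*. Their log2 fold changes were then -0.33 and -0.28. Of 11 genes that glycosylate dystroglycan for laminin binding, 4 were above 0 and 7 below, and 2 were lowest in *Lztr1* R409C/+ replicate 1. *B4gat1*, a glycosyltransferase gene of this pathway, was at 14.0 to 17.7 CPM in WT and at 14.0, 21.5, and 30.9 CPM in *Lztr1* R409C/+ mice (log2 fold change 0.47, edgeR adjusted p = 0.625).

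**Figure D5:**
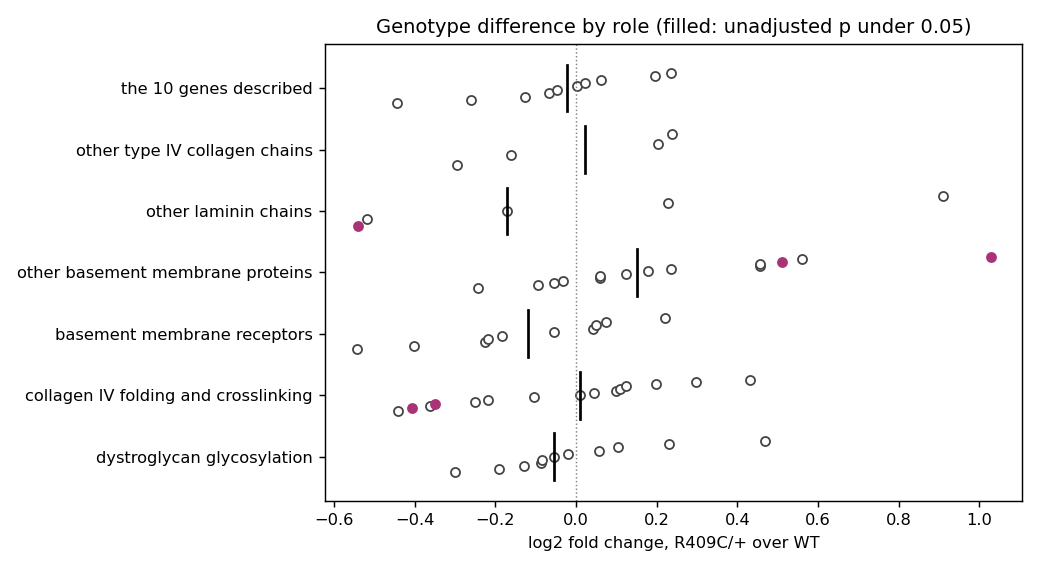
Log2 fold change of *Lztr1* R409C/+ over WT (horizontal axis) for each tested gene, by role, with the median of each group as a black line and filled points for an unadjusted p under 0.05 by edgeR. The medians lie between -0.17 (other laminin chains) and 0.15 (other basement membrane proteins), and *Sparc*, *Smoc1*, *P4ha1*, and *Mia3* are among the filled points.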

How the data were processed

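Per the labels and the study's methods, the authors trimmed reads with Trim Galore, aligned them to GRCm39 with HISAT2, excluded rRNA, and used StringTie, and they deposited whole-number counts per gene without normalization. Versions, the annotation release, strand, and how counts were taken from StringTie are not given in the sources used here. A second deposited table holds the authors' edgeR comparison (log2 fold changes, mean log2 CPM, p-values, and adjusted p-values). Only its gene names were used.

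The genotypes were compared in edgeR 4.0.16 under R 4.3.3: filterByExpr, TMM, robust quasi-likelihood test of 3 mice against 3, Benjamini-Hochberg adjustment over 17212 genes, two-sided, threshold 0.05. DESeq2 1.42.0 was an alternative. Log2 CPM used a prior count of 2. Lengths are those of canonical GENCODE transcripts on GRCm39, and 56236 of 56923 genes matched. No column of the count table was left unmapped. Nothing says that mice came from separate litters, so p-values measure the spread between these mice. At these depths 3 counts corresponded to 0.0317 to 0.0541 CPM, counting error only. The fits were tested on simulated data, and the outcome of that test is not reported here. The genes and lists were chosen with earlier results of these data known. The rule for named genes took the 10 genes, *Lztr1*, from each list the pair of genes lowest in unadjusted p, and the 5 profiles nearest to *Col4a1*. Some genes that this rule takes are not reported here.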

Additional observations from a re-analysis of the deposited data

How the results depend on the processing

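With all genes, 7 passed the adjusted threshold. This number was 21 with library size only, 20 without a filter, 150 with DESeq2, 3 with the gene length correction, and 2 to 4 when each mouse was left out. The labels do not say whether the replicate numbers pair mice. Deviations of same-numbered mice correlated at -0.06 to 0.02 and those of differently numbered mice at -0.05 to 0.05. With 3 mice per group, such values cannot exclude a shared litter or batch. A fit with the replicate block gave 1 gene.

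None of the 10 genes passed the adjusted threshold in any of the 15 alternatives, and *Lama2*, *Lamb2*, *Nid1*, and *Nid2* kept their direction in all of them. Library size only shifted the median of all genes to -0.14. It gave -0.13 for *Col4a1*, -0.048 for *Col4a2*, and -0.056 for *Hspg2*, all of which lay above the shifted median. With the replicate block these were -0.11, -0.067, and -0.11. *Col4a1* was -0.0063 with DESeq2's size factors and with its Wald test and -0.0096 without a filter. *Lamc1* was 0.010 with the length correction. With the length correction and without *Lztr1* R409C/+ replicate 1, *Lama4* was 0.15, *Lamb1* 0.14, and *Lamc1* 0.27. When each mouse was left out, the ranges were -0.25 to 0.32 for *Col4a1*, -0.17 to 0.39 for *Col4a2*, -0.24 to 0.15 for *Lama4*, -0.31 to 0.14 for *Lamb1*, -0.27 to 0.23 for *Lamc1*, -0.33 to 0.35 for *Hspg2*, 0.045 to 0.43 for *Nid1*, and 0.092 to 0.47 for *Nid2*. Of the ratios, when each mouse was left out, the log2 difference ranged from -0.016 to 0.090 for *Col4a2* to *Col4a1*, from -0.017 to 0.062 for *Nid2* to *Nid1*, from -0.19 to 0.093 for *Lama2* plus *Lama4* to *Lamc1*, from -0.27 to -0.057 for *Lama2* to *Lama4* (nearest 0 without WT replicate 3), from -0.40 to -0.17 for *Lamb2* to *Lamb1* (nearest 0 without mutant replicate 2), and from -0.37 to -0.17 for the beta chains to *Lamc1* (nearest 0 without WT replicate 3). The median of the dystroglycan glycosylation genes was -0.18 with library size only, -0.092 with the length correction, and -0.18 to 0.031 when each mouse was left out. With each mouse left out, the median ranged from -0.39 to -0.0070 for other laminin chains and from 0.066 to 0.28 for other basement membrane proteins. It ranged from -0.12 to 0.16 for other collagen IV chains, -0.21 to 0.056 for receptors, and -0.079 to 0.036 for folding and crosslinking. With library size only, the median of other basement membrane proteins was -0.00076. The cause of these changes was not tested.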
